A study of Mus musculus with 49 samples.

Results

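The genes of potassium channel subunits were followed through RNA sequencing of mouse frontal cortex. Members were the rows whose symbol is Kcn with a subfamily letter and a number and whose mean level over all libraries was at least 5 on the deposited scale, log2(normalised reads + 1). Of 24495 genes in the table, 97 had such a symbol and 79 reached that level. They are 76 genes of pore and auxiliary subunits and 3 non-coding transcripts that carry a channel name (Kcnq1ot1, Kcnd3os and Kcnmb4os2). The members just inside the threshold were Kcnk5 (mean level 5.22) and Kcnq1 (5.29), and the genes just outside it were Kcnmb1 (4.91) and Kcnj5 (4.90).

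The study set the brains of mice on a high fat diet side by side by diet length, by genotype and by induction of human amylin, a pancreatic peptide hormone that forms deposits in humans. CreTM (10 libraries) and CreVE (10) were conditional human amylin transgenic mice fed the diet for 4 months and injected with tamoxifen or with vehicle, with brains taken 2 months later. The group titled 4MHFA (10) was labelled AKO, the amylin knockout, 4MHFW (10) was WT, both after 4 months of diet, and 2MHF (9) was WT after 2 months. No group was fed a control diet, all 49 libraries came from mice on high fat diet, and the labels give neither the promoter behind Cre nor age, sex or strain. The WT groups differ in diet length and, as far as the labels say, possibly in age, and these cannot be told apart.

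Potassium channels let potassium leave the cell and so set the resting potential, end the action potential and limit firing. Voltage-gated (Kv) channels open on depolarisation, and some Kv subunits are electrically silent and work only together with Kv2 subunits. Calcium- and sodium-activated channels shape the potential that follows a spike, inward rectifiers (Kir) hold the cell near rest, and tandem-pore (K2P) channels carry leak current. Cytoplasmic and membrane-spanning auxiliary subunits change how many channels reach the surface and how fast they inactivate.

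Libraries held 29.2 to 75.6 M recovered reads (M, 1000000; median 42.0 M). The check of the genotype left one label unsettled. Iapp, the mouse amylin gene, had 36 to 116 reads in each of the 10 libraries labelled AKO, 596 in all, against 0 reads in 4MHFW. It had 0 reads in 2MHF and CreTM and 1 read in CreVE. As the WT libraries held 0 reads, a lack of Iapp could not have marked a knockout here. Whether the label or the design of the allele accounts for the reads was not tested. The 4MHFA group is therefore called the libraries labelled AKO throughout. Markers of cortical excitatory neurons were present in every library, with a mean level of their 12-gene list between 10.3 and 11.7. Marker lists of neighbouring regions varied widely within groups. The olfactory bulb list of 14 genes ran between 6.91 and 12.6 and the striatal projection neuron list, also of 14 genes, between 8.27 and 12.1.

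Levels between genes were compared as log2 normalised reads per kb of exon. Auxiliary subunits included the most abundant member, Kcnab2, a cytoplasmic subunit of Kv1 channels, at 12.01 per kb, and the Kv4 partner Kcnip3 at 11.01. Among pore subunits the inward rectifier Kcnj4 was highest at 11.92. The silent subunit Kcnf1 followed at 11.08, the tandem-pore gene Kcnk1 at 10.89 and the Kv1 gene Kcna1 at 10.75. Other voltage-gated genes lay near 10 per kb. Kcnh3 stood at 10.57, Kcnc4 at 9.94 and Kcnd2, the dendritic A-type subunit, at 9.91. The 4 Kv3 genes, subunits of fast-spiking cells, lay between 8.96 and 9.94 per kb. Calcium- and sodium-activated channels were lower, led by the sodium-activated Kcnt1 at 8.88 with Kcnma1, the large-conductance pore, at 7.86 and Kcnn1 at 7.61. The silent subunit Kcnv1 had 10.29 per kb and Kcnmb4, the neuronal auxiliary subunit of the large-conductance channel, 10.02. The highest members of the remaining subfamilies were Kcns2 at 8.54 and Kcng1 at 7.79, both silent, the auxiliary Kcne1l at 6.92 and Kcnu1 at 4.98 per kb. At the other end, Kcnq1 stood at 3.35, Kcnk5 at 3.53 and the silent subunit Kcng3 at 3.71 per kb.

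**Figure D1:**
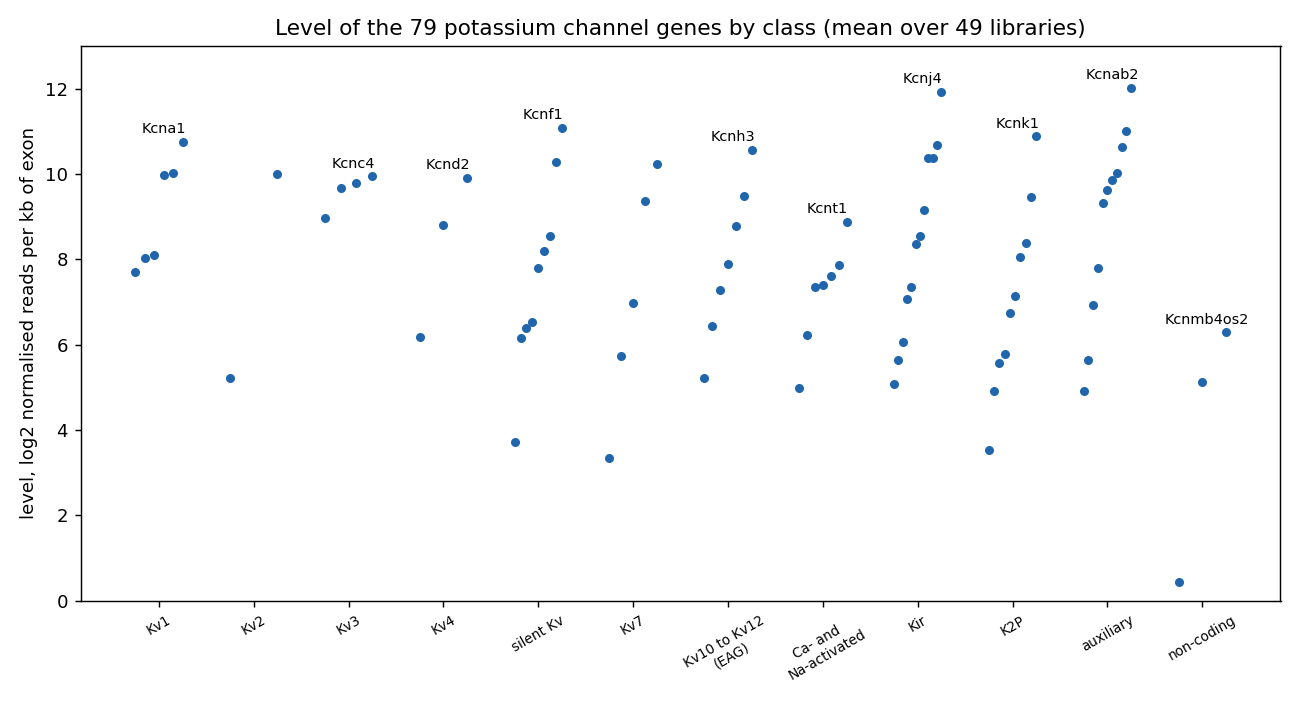
Mean level of each of the 79 members over 49 libraries, in log2 normalised reads per kb of exon (vertical axis), by class (horizontal axis), with the highest member named for most classes. Auxiliary subunits and inward rectifiers hold the most abundant members (Kcnab2 at 12.01 and Kcnj4 at 11.92), and the 3 non-coding transcripts lie between 0.44 and 6.29.

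Reads of some members could not be separated from a neighbour. Exons of 29 members overlap exons of another gene in the annotation. On the opposite strand these include Kcnh3 with Mcrs1, Kcnj13 with Gigyf2 and Kcnq1 with Kcnq1ot1. Kcnab2 overlaps Gm16334, and Kcnk4 overlaps Catsperz, on the same strand. The kit named in the labels is stranded, but the sources used here do not say how reads were counted, so values of these members may include reads of the neighbour.

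A few libraries stood apart over the members, measured by the median, over the 79 members, of the distance of a library from its group median. It was 0.678 in CreVE 3, 0.469 in CreTM 9, 0.345 in CreVE 1 and 0.256 in 2MHF 37, on the log2 scale. The other 45 libraries lay between 0.054 and 0.228. CreVE 3 alone was the highest of all 49 libraries for 17 members and the lowest for 26. In that library Kcnab1, an auxiliary subunit of Kv1 channels, had a level of 10.36, against a CreVE median of 12.34, the silent subunit Kcns1 had 7.502, against 9.743, and Kcnj13 had 1.23 (1 read), against 5.97. The interneuron-rich auxiliary subunit Kcnip1 went the other way, at 11.71 in CreVE 3, against a CreVE median of 10.31. The same 3 transgenic libraries had the highest olfactory bulb lists (12.6 in CreVE 3, 12.1 in CreVE 1 and 11.3 in CreTM 9), and their excitatory lists were 10.4, 11.1 and 10.3. In 2MHF 37 the striatal list was the highest of its group, at 12.045. The part of these lists in the members' levels was looked at only by using a list as a covariate. Where a list itself differs between groups, such a fit cannot separate list from group. The myelinating oligodendrocyte list averaged 12.47 (SD 0.08) in 4MHFW and 11.82 (SD 0.38) in CreVE. Calls lost in such a fit therefore do not show the part of the list. The counts of called members, the spread and the marker relations are given with and without these libraries.

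**Figure D2:**
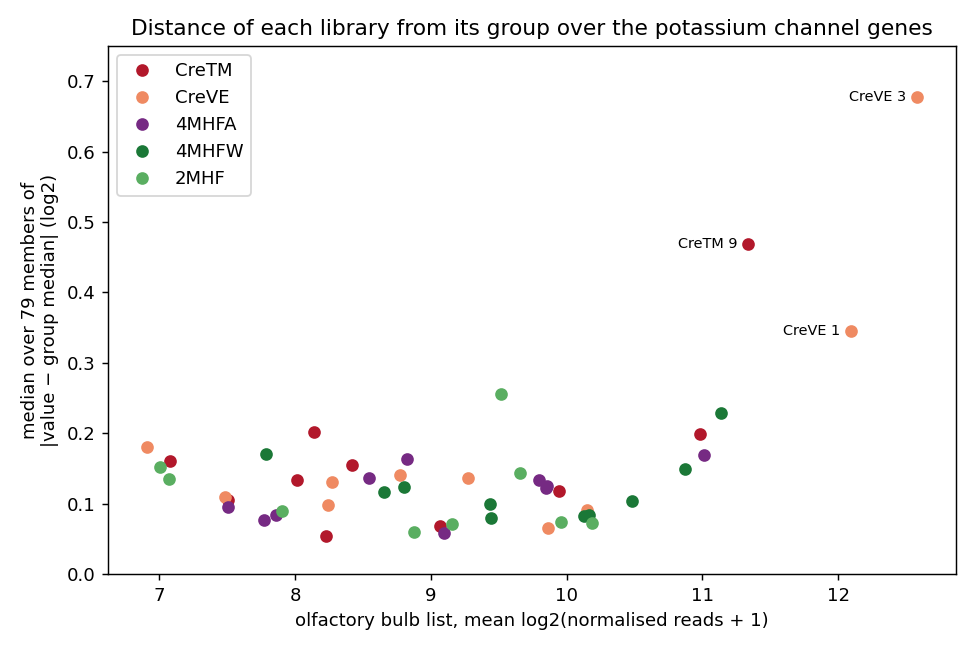
Median distance of each of the 49 libraries from its group median over the 79 members (vertical axis, log2) against the mean level of the olfactory bulb list, in log2(normalised reads + 1) (horizontal axis), 1 point per library, coloured by group. CreVE 3 (0.678), CreTM 9 (0.469) and CreVE 1 (0.345) lie above all others and have the highest olfactory bulb lists.

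Within groups the members varied more than other genes. The median of their pooled SD was 0.276 and the median range of their 5 group means was 0.268, both on the log2 scale, against 0.158 and 0.186 over the 14023 genes with a mean level of at least 5. A range of group means of at least 0.5 was seen for 7 members, 8.86% of them, and for 8.61% of those genes. The tightest members were Kcnk1 (pooled SD 0.111), Kcnh3 (0.131) and the Kv3 gene Kcnc1 (0.134), and the most variable were Kcnj13 (0.864), Kcng3 (0.656) and Kcnq1 (0.611). Without CreVE 3, CreTM 9, CreVE 1 and 2MHF 37 the median pooled SD was 0.204 over the members and 0.133 over those genes, and the median ranges of group means were 0.306 and 0.194. The pooled SD of Kcnj13 was then 0.559, that of Kcng3 0.428 and that of Kcnq1 0.609, the highest of the 79, and Kcnab2 had the lowest (0.0944). Group means were highest in 2MHF for 37 of the 79 members, where 25.1% of the genes had theirs. They were lowest in the libraries labelled AKO for 29 members, where 19.7% of the genes had theirs.

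The regions before the start of transcription are shown for 3 members: for the gene with the smallest adjusted p in the libraries labelled AKO (Kcng4), for the one with the smallest in 4MHFW against 2MHF (Kcnip3), and for another gene of the Kcnip3 family, called in CreTM against 4MHFW (Kcnip4). They are the 250 bases before a RefSeq start on GRCm38.p6, 5′ to 3′ on the strand of the gene, at chr8:119635681-119635930 (Kcng4), chr2:127522095-127522344 (Kcnip3) and chr5:49285660-49285909 (Kcnip4), all on the minus strand. The Kcng4 and Kcnip3 stretches lie directly before the annotated gene, and that of Kcnip4 lies inside the annotated gene before an internal start. Capitals mark matches to the AP-1 motif.
Kcng4: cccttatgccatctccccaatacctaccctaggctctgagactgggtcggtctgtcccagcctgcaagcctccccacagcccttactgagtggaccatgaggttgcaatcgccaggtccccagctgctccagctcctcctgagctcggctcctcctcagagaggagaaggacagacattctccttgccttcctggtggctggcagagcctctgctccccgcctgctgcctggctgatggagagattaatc
Kcnip3: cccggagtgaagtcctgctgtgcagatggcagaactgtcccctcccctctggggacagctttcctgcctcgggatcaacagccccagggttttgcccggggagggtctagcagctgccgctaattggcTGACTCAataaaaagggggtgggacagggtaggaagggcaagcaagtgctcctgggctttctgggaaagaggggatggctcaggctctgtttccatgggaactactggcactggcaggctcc
Kcnip4: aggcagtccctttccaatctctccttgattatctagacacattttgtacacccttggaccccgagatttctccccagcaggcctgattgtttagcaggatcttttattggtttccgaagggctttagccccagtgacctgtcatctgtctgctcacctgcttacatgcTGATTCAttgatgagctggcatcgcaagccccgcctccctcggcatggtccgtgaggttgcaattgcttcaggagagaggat
Both Kcnip windows held one match to the AP-1 motif TGANTCA, bound by Fos and Jun proteins, and the Kcng4 window held none. The regions of Kcnj12, Kcnf1 and Kcnk4, called in 4MHFW against 2MHF and not shown, held none either. RefSeq windows of 250 bases before to 50 after a start were found for 56 of the 79 members (79 windows, some genes having several). On both strands, TGANTCA occurred in 3.80% of the members' windows (3 of 79) and in 7.81% of all 32851 windows. The Kcnip windows shown are thus not typical of the members. The cAMP response element TGACGTCA occurred in 0% and 1.79%, the Egr motif GCGNGGGCG in 5.06% and 5.55%, and the GC box GGGCGG in 49.4% and 35.7%; an Egr match can overlap a GC box. The Kcng4, Kcnip3 and Kcnip4 sequences shown held none of these other motifs.

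All 79 members passed the filter on low values in every comparison. In the libraries labelled AKO, 2 of them were lower than in 4MHFW and 0 were higher, by limma with Benjamini-Hochberg adjustment over all genes at a threshold of 0.05. The background was 0.786% of 15269 genes called, 0.504% lower and 0.282% higher. Kcng4, a silent subunit that modifies Kv2 channels (chr8:119623854-119635680), had levels of 7.16 at the lowest, 7.78 at the median and 8.08 at the highest in the libraries labelled AKO, against 7.93, 8.27 and 8.53 in 4MHFW. The groups overlapped only between 7.93 and 8.08. The log2 difference was -0.48 (SE 0.11, adjusted p = 0.0286, limma). Kcnab2 (chr4:152390742-152477871) ran from 14.28 over a median of 14.36 to 14.44 in the libraries labelled AKO, against 14.33, 14.51 and 14.74 in 4MHFW. All 10 libraries labelled AKO lay below the 4MHFW median. Its log2 difference was -0.17 (SE 0.04, adjusted p = 0.0454, limma).

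Both calls depended on single libraries. The call of Kcng4 was lost without 4MHFW 12, 21 or 22 or without 4MHFA 6 (adjusted p up to 0.0564). That of Kcnab2 was lost in 17 of the 20 fits that left out 1 library, all but those without 4MHFW 23, 4MHFW 24 or 4MHFA 21 (adjusted p up to 0.0871, limma). The difference of Kcng4 kept between -0.52 and -0.42 in these fits, and that of Kcnab2 between -0.19 and -0.14. Kcng4 was not called against 4MHFW 11 to 15 alone (adjusted p = 0.118) or 21 to 25 alone (adjusted p = 0.0716, limma). Kcnab2 was called against the former (adjusted p = 0.0296) and not against the latter (adjusted p = 0.209, limma). With the myelinating oligodendrocyte list as a covariate 0 members and 0.0917% of genes were called, with log2 differences of -0.61 for Kcng4 (adjusted p = 0.102, limma) and -0.16 for Kcnab2 (adjusted p = 0.313). That list was called lower in the libraries labelled AKO for 2 of its 12 genes. Of all 12, 0 lay above 0, and their median log2 difference was -0.18. The olfactory bulb list lay below 0 for 14 of 14 genes (median -0.57) and the striatal list above 0 for 14 of 14 (median 0.38), with 0 genes of either called. With either list as a covariate 3 members were called, Kcng4 among them (1.24% of genes with the olfactory bulb list, 0.884% with the striatal list). With the striatal list Kcnab2 was not called (adjusted p = 0.0756, limma). Fewer cells of a type and less RNA per cell cannot be told apart in these bulk samples.

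Below these calls most members lay on the lower side in the libraries labelled AKO. Only 29 of the 79 differences were above 0, and the median of all 79 was -0.06 on the log2 scale, against 0.01 over all genes tested. At an unadjusted p under 0.05, 14 members lay lower (17.7%, against 7.05% of genes), the called pair among them, and 2 lay higher (2.53%, against 6.9%). Of the Kv3 genes, Kcnc2 had levels of 11.48, 11.64 and 11.79 (lowest, median, highest) in the libraries labelled AKO, against 11.62, 11.77 and 11.996 in 4MHFW (log2 difference -0.15, SE 0.05, adjusted p = 0.137, limma). Kcnc1 had a log2 difference of -0.14 (adjusted p = 0.265, limma). The Kv1 gene Kcna1 differed by -0.21 (adjusted p = 0.174, limma) and its auxiliary subunit Kcnab3 by -0.40 (adjusted p = 0.164). Kcnc1, Kcna1 and Kcnab3 were not among the 3 members of smallest p on the lower side. By class, 1 of 4 Kv3 genes lay above 0 (median -0.15), as did 3 of 6 Kv1 genes (median -0.01) and 1 of 3 Kcnab genes (median -0.17). On the higher side the Kv4 auxiliary gene Kcnip4 differed by 0.16 (SE 0.05, adjusted p = 0.186, limma), and Kcnh4 by 0.22 (adjusted p = 0.338). The Kv1 gene Kcna5, next by p, differed by 0.36 (SE 0.19, unadjusted p = 0.0698 and adjusted p = 0.404, limma). Of the immediate early list, genes switched on by neuronal activity, 11 of 16 were called lower in the libraries labelled AKO. In that comparison 0 of the 16 lay above 0 (median log2 difference -0.90). Against the same 4MHFW libraries the list also lay lower in CreTM (median -0.38, 1 of 16 called) and in CreVE (median -0.48, 1 of 16 called). The part of that list in the members' differences was not tested.

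**Figure D3:**
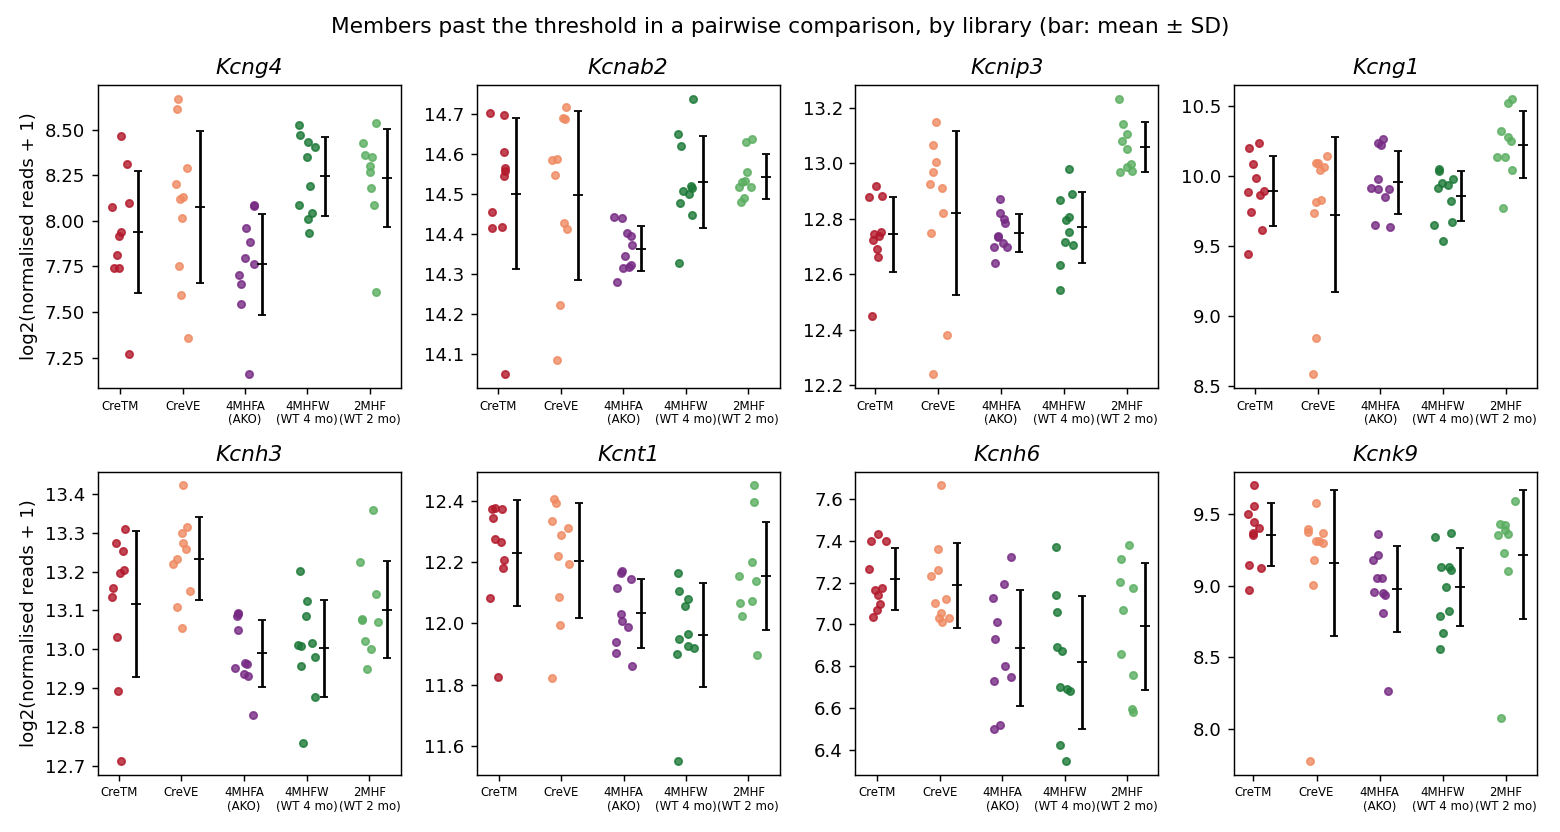
Levels of 8 members called in a pairwise comparison, in log2(normalised reads + 1) (vertical axis), 1 point per library, by group (horizontal axis), with the group mean and SD as a bar. Kcng4 and Kcnab2 lie lowest in the libraries labelled AKO, Kcnip3 and Kcng1 highest in 2MHF, and Kcnh3, Kcnt1 and Kcnh6 higher in the transgenic groups than in 4MHFW.

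Between WT mice after 4 and after 2 months of diet, 7 of the 79 members were called, at a background of 8.69% of 15234 genes. Of these, 6 were lower in 4MHFW (background for lower genes 4.15%) and 1 was higher (background 4.54%). By role, 2 are auxiliary, 2 are silent Kv subunits and the others are 1 each of the inward rectifiers, the calcium-activated and the tandem-pore channels. Kcnip3, a calcium-binding subunit of Kv4 channels that also acts as a transcriptional repressor (chr2:127456498-127522094), had levels of 12.54, 12.77 and 12.98 (lowest, median, highest) in 4MHFW, against 12.97, 13.05 and 13.23 in 2MHF. Apart from the top of 4MHFW and the bottom of 2MHF the groups did not overlap. The log2 difference was -0.29 (SE 0.05, adjusted p = 0.00286, limma), and it was called in all 19 fits that left out 1 library. Its relative Kcnip2 went the other way, with 12.26, 12.51 and 12.65 in 4MHFW, against 12.14, 12.20 and 12.51 in 2MHF (log2 difference 0.20, SE 0.06, adjusted p = 0.0381).

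Both silent subunits among the called members were lower after 4 months. Kcng1 (chr2:168260117-168281736) had levels of 9.54, 9.92 and 10.05 in 4MHFW, against 9.77, 10.25 and 10.55 in 2MHF, a log2 difference of -0.37 (SE 0.09, adjusted p = 0.0173, limma). It was called in all 19 fits that left out 1 library. Kcnf1 had 13.20, 13.32 and 13.46 in 4MHFW, against 13.24, 13.50 and 13.75 in 2MHF (log2 difference -0.17, SE 0.05, adjusted p = 0.045). The other called members came from 3 further classes. The strong inward rectifier Kcnj12 had 9.76, 9.98 and 10.09 in 4MHFW, against 9.96, 10.10 and 10.56 in 2MHF (log2 difference -0.28, SE 0.08, adjusted p = 0.029, limma). Kcnn2, a small-conductance calcium-activated channel, had 9.89, 10.30 and 10.47 in 4MHFW, against 10.30, 10.52 and 10.90 in 2MHF (log2 difference -0.27, SE 0.08, adjusted p = 0.0439). Kcnk4, a tandem-pore channel opened by stretch and lipids, had 8.27, 8.72 and 9.16 in 4MHFW, against 8.64, 9.03 and 9.75 in 2MHF (log2 difference -0.42, SE 0.13, adjusted p = 0.0474, limma). For each of these genes the middle of 4MHFW lay below the middle of 2MHF, and the ranges overlapped.

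A single library of 2MHF moved this count most. Without 2MHF 37, limma called 20 of the 79 members, 19 of them lower and 1 (Kcnip2) higher in 4MHFW, at a background of 18.6% of genes (10% lower, 8.6% higher). The 2MHF 37 library was the lowest of all 49 for Kcnb2, Kcnh5, Kcnh7, Kcnma1 and Kcnn3. Kcnj6, a G protein-gated inward rectifier, is an example. It had 9.99, 10.14 and 10.44 in 4MHFW, against 9.42, 10.55 and 10.75 in 2MHF, where the 9.42 is 2MHF 37. Its log2 difference was -0.25 (SE 0.13, adjusted p = 0.219) with that library and -0.38 (SE 0.07, adjusted p = 0.00155, limma) without it. Among the further members called without it were Kcnma1 (-0.22), the G protein-gated Kcnj9 (-0.25), Kcnk9 (-0.37) and Kcnq3 (-0.19), all log2 differences. The other libraries that moved the count by more than 1.5 times lowered it. It was 2 without 2MHF 34 or 35 (5.34% and 5.14% of genes). It was 3 without 4MHFW 12, 21 or 23 (5.06%, 8.56% and 6.04%) or without 2MHF 32 or 36 (5.09% and 6.45%). It was 4 without 4MHFW 15, 24 or 25 (6.66%, 7.5% and 7.27%) or without 2MHF 33 or 40 (5.27% and 8.75%).

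The remaining called members depended on single libraries. Kcnj12 was not called without 4MHFW 15 or 23 or without 2MHF 32, 34 or 35 (adjusted p up to 0.06, limma). Kcnip2 was called without 4MHFW 11, 14, 15, 22 or 23 or without 2MHF 32 or 37 and in no other such fit (adjusted p up to 0.0742). For Kcnn2 this held without 4MHFW 13, 22 or 24 or without 2MHF 37 or 39 (up to 0.0852), for Kcnf1 without 4MHFW 11, 14 or 15 or without 2MHF 33 or 37 (up to 0.0892), and for Kcnk4 without 4MHFW 22 or without 2MHF 37, 38, 39 or 40 (up to 0.0955). Markers of other cells moved in the same comparison. Called higher in 4MHFW were 4 of 10 astrocyte genes, 5 of 10 microglial genes, 2 of 10 endothelial and 2 of 9 pericyte genes. Called lower were 2 of 12 excitatory and 2 of 11 inhibitory neuron genes. With the olfactory bulb or the myelinating oligodendrocyte list as a covariate 1 member was called (2.13% and 0.755% of genes), Kcnip3 in both, and with the striatal list 3 (6.16%). The myelinating oligodendrocyte list lay above 0 for 12 of 12 genes (median 0.23, 1 called). With the myelinating oligodendrocyte covariate the log2 differences of the other lower members moved toward 0, to -0.23 for Kcng1, -0.16 for Kcnj12 and Kcnn2, -0.08 for Kcnf1 and -0.24 for Kcnk4 (adjusted p of 0.162 or more, limma). The difference of Kcnn2 was -0.18 with 4MHFW 21 to 25 alone (adjusted p = 0.266), and that of Kcnf1 -0.12 with 4MHFW 11 to 15 alone (adjusted p = 0.287). The part of the other lists was not tested.

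Over all 79 members the median log2 difference of 4MHFW from 2MHF was -0.08, against 0.00 over all genes tested, and 27 members lay above 0. All 4 Kv3 genes (median -0.08), all 5 Kv7 genes (median -0.09) and 7 of the 9 silent subunits (median -0.19) were below 0. So were 6 of the 7 genes placed in the calcium- and sodium-activated class and 6 of the 7 EAG-type genes (median -0.13 in each class). The former class was drawn to include the sperm-type Kcnu1 (-0.09). Below 0 too were 6 of the 10 tandem-pore genes (median -0.13) and 4 of the 6 Kv1 genes (median -0.06). Inward rectifiers were split, with 6 of 12 above 0 (median -0.01), and 7 of the 11 auxiliary subunits lay above 0 (median 0.09). At an unadjusted p under 0.05, 17 members lay lower (21.5%, against 13.2% of genes) and 6 higher (7.59%, against 14%). Besides Kcnip2, the higher ones were 5 rectifier and leak channels best known outside cortical neurons, none of which passed the adjustment. They were Kcnj13 of choroid plexus epithelium (log2 difference 0.65, SE 0.23, adjusted p = 0.0738, limma), Kcnk13 of microglia (0.22, adjusted p = 0.109), the astrocyte channels Kcnj10 (0.17, adjusted p = 0.131) and Kcnj16 (0.16, adjusted p = 0.171), and Kcnj8 of pericytes (0.28, adjusted p = 0.174).

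**Figure D4:**
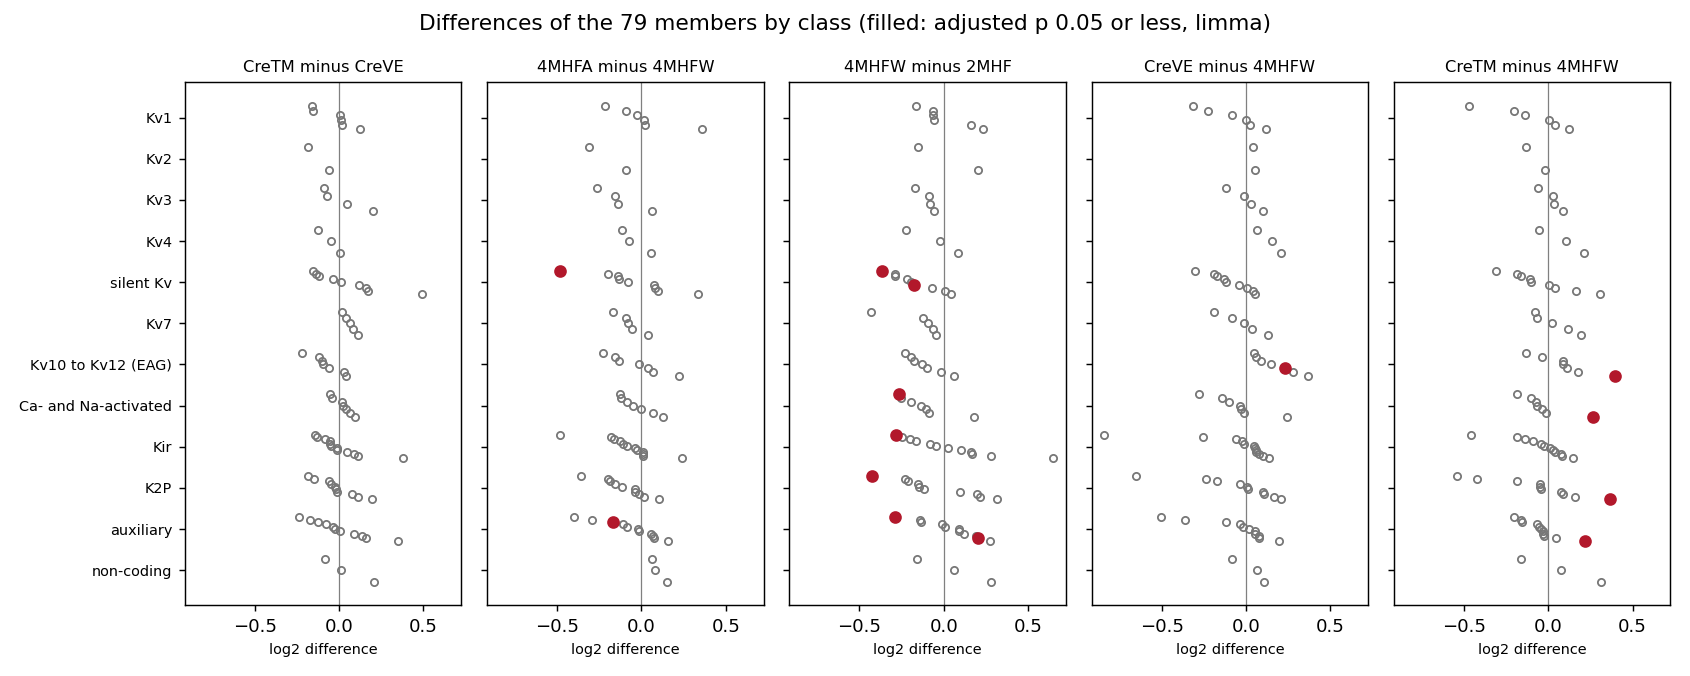
Log2 differences of the 79 members in 5 comparisons (horizontal axis), 1 point per member, by class (vertical axis), with filled points at adjusted p of 0.05 or less (limma). In 4MHFA against 4MHFW 29 of the 79 members lie above 0, in 4MHFW against 2MHF 27 do, and CreTM against CreVE has no filled point.

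Tamoxifen induction was not followed by a called difference in any member. In CreTM against CreVE limma called 0 of the 79 members and 0% of 15224 genes, with 1 member and 502 genes at an unadjusted p under 0.05. The member was Kcnj4, with levels of 12.75, 12.94 and 13.15 (lowest, median, highest) in CreTM, against 12.76, 13.09 and 13.46 in CreVE. The ranges began at nearly the same level and that of CreVE reached higher, with a log2 difference of -0.14 (SE 0.07, 95% interval -0.28 to -0.0017, adjusted p = 0.9998, limma). Of the members with the next smallest p in each direction, Kcnh5 differed by -0.22 (SE 0.12), the silent subunit Kcns2 by -0.12 (SE 0.07), the auxiliary subunit Kcne4 by 0.35 (SE 0.23), Kcng3 by 0.49 (SE 0.37) and Kcnip4 by 0.14 (SE 0.11). The 95% interval of the difference lay within 0.5 of 0 on the log2 scale for 57 members and within 1 for 77. For the other members the interval did not exclude a difference of that size. Leaving out CreTM 9, CreVE 1 and CreVE 3 also gave 0 called members at 0% of genes. The test of whether the difference between the libraries labelled AKO and 4MHFW differs from that between CreTM and CreVE called 0 members and 0.0382% of 15691 genes (0.0255% higher, 0.0127% lower), with 1 member (Kcne4, log2 difference of differences -0.64, SE 0.30, adjusted p = 0.877, limma) at an unadjusted p under 0.05.

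Both transgenic groups were also set against 4MHFW, the WT mice with the same diet length. The groups compared differ in injection as well as in the transgene, the strain background is not labelled, and the comparisons share the 4MHFW libraries with each other and with the comparisons above. CreVE against 4MHFW gave 1 called member at a background of 6.17% of 15207 genes (2.58% higher, 3.59% lower). It was Kcnh3, a Kv12-type channel that acts below the firing threshold of cortical neurons (chr15:99224861-99242817). Its levels were 13.05, 13.24 and 13.42 in CreVE, against 12.76, 13.01 and 13.20 in 4MHFW. The log2 difference was 0.23 (SE 0.05, adjusted p = 0.00943, limma), called in all 20 fits that left out 1 library. Kcnh3 was not called against 4MHFW 11 to 15 alone (0.25, adjusted p = 0.0908) or 21 to 25 alone (0.22, adjusted p = 0.0567, limma). The same gene had 12.71, 13.18 and 13.31 in CreTM, a log2 difference of 0.11 (SE 0.07, adjusted p = 0.289) from 4MHFW.

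CreTM against 4MHFW gave 4 called members, all higher, at a background of 13.1% of 15237 genes (6.2% higher, 6.9% lower). Kcnt1, the sodium-activated channel (chr2:25863734-25918273), had 11.83, 12.27 and 12.38 in CreTM, against 11.55, 11.96 and 12.16 in 4MHFW (log2 difference 0.27, SE 0.07, adjusted p = 0.0164, limma). Kcnh6, of the ERG subfamily (chr11:106008124-106034549), had 7.04, 7.17 and 7.43 in CreTM, against 6.35, 6.79 and 7.37 in 4MHFW (log2 difference 0.40, SE 0.11, adjusted p = 0.0239). Kcnk9, an acid-sensitive tandem-pore leak channel (chr15:72501089-72546340), had 8.97, 9.39 and 9.70 in CreTM, against 8.55, 9.05 and 9.37 in 4MHFW (log2 difference 0.37, SE 0.10, adjusted p = 0.0242). Kcnip4 had 11.23, 11.64 and 11.79 in CreTM, against 11.15, 11.37 and 11.53 in 4MHFW (log2 difference 0.22, SE 0.07, adjusted p = 0.033, limma). For Kcnt1, Kcnk9 and Kcnip4 the CreTM median lay above the highest 4MHFW library, for Kcnh6 it did not, and all 4 pairs of ranges overlapped. In CreVE, Kcnt1 had a log2 difference of 0.24 (SE 0.08, adjusted p = 0.0588) from 4MHFW and Kcnh6 one of 0.37 (SE 0.12, adjusted p = 0.077). Kcnk9 was not called without CreTM 15 (adjusted p = 0.0505), and Kcnip4 not without CreTM 15, 21, 27, 33, 44 or 45 or without 4MHFW 12, 21, 23 or 25 (up to 0.0621). Against 4MHFW 11 to 15 alone the difference of Kcnh6 was 0.19 (adjusted p = 0.38, limma), and against 4MHFW 21 to 25 alone it was 0.61 (adjusted p = 0.00408). Kcnt1 was called against neither set alone (0.31, adjusted p = 0.0755 with 11 to 15, and 0.23, adjusted p = 0.0855 with 21 to 25, limma).

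Of the members that did not pass, those of smallest p on the lower side in CreTM were Kcnk13, Kcns2 and Kcng4. Kcnk13, a tandem-pore channel of microglia, had 8.0004, 8.42 and 9.28 in CreTM, against 8.63, 9.0015 and 9.16 in 4MHFW (log2 difference -0.42, SE 0.14, adjusted p = 0.0521, limma), and the silent subunits Kcns2 (-0.16, adjusted p = 0.0927) and Kcng4 (-0.31, adjusted p = 0.0958) lay below 0 too. In CreVE against 4MHFW they were Kcnk5 (log2 difference -0.65, SE 0.26, adjusted p = 0.143), Kcne4 (-0.51, SE 0.25, adjusted p = 0.241) and the sperm-type channel Kcnu1 (-0.28, SE 0.15, adjusted p = 0.28). The myelinating oligodendrocyte list was called lower in CreTM than in 4MHFW for 11 of 12 genes (median -0.43) and in CreVE for 12 of 12 (median -0.63). In either group 0 of its 12 genes lay above 0. With its level as a covariate 1 member was called in CreTM (3.95% of genes) and 0 in CreVE (0.0197%). In that fit the log2 differences in CreTM were 0.23 for Kcnt1 (adjusted p = 0.275, limma), 0.46 for Kcnh6 (0.153), 0.32 for Kcnk9 (0.286) and 0.06 for Kcnip4 (0.752), and that of Kcnh3 in CreVE was 0.14 (0.515). Kcnip4 also missed the threshold with the striatal covariate (0.15, adjusted p = 0.144) and the olfactory bulb one (0.16, adjusted p = 0.0677), and Kcnk9 with the striatal one (0.35, adjusted p = 0.0593). Of the precursors of oligodendrocytes, 2 of 8 genes were called lower in CreTM and 3 of 8 in CreVE, and 2 of 10 endothelial genes were called lower in each. The striatal list had 0 of 14 genes above 0 in either group (median -0.87 in CreTM and -0.75 in CreVE) and the olfactory bulb list 0 of 14 in CreTM (median -0.78) and 2 of 14 in CreVE (median -0.25), with 0 genes of both lists called. The microglial list had 6 of 10 genes above 0 in CreTM (median 0.01, 0 called) and 2 of 10 in CreVE (median -0.03, 1 called lower). The part of the lists not used as a covariate was not tested.

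The libraries that stood apart bore on these counts. Without CreTM 9 alone, 11 members were called in CreTM against 4MHFW, at a background of 20.8% of genes, 8 of them higher (10.7%) and 3 lower (10.1%). The further higher ones were Kcnd1, an A-type Kv4 subunit (log2 difference 0.24), Kcnj9 (0.28), Kcnh3 (0.16) and the non-coding Kcnmb4os2 (0.42), and the lower ones were Kcnk13 (-0.51, adjusted p = 0.00586), Kcnip1 (-0.26) and Kcnj10 (-0.26). Without CreVE 1 and CreVE 3, 15 members were called in CreVE against 4MHFW at a background of 18%, 12 higher (9.2%) and 3 lower (8.75%). Kcnt1 led with 0.31 (SE 0.07, adjusted p = 0.00438, limma), followed by Kcnh3 (0.21), Kcnip4 (0.21) and Kcnj9 (0.27), and Kcnk13 (-0.47), Kcnip1 (-0.24) and Kcnj10 (-0.22) were lower. Without CreVE 3 alone 4 members were called in CreVE against 4MHFW (9.79% of genes). There were 2 without CreVE 16 (6.42%), 4MHFW 12 (4.8%) or 4MHFW 22 (5.01%). In CreTM against 4MHFW there were 2 without CreTM 15 (9.62%). With all libraries, the Kcnip4 difference of CreVE from 4MHFW was 0.08 (SE 0.10) and that of Kcnj9 in CreTM was 0.15 (SE 0.15, adjusted p = 0.561, limma).

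Across the 5 groups in 1 model, 12 members differed by limma's F test, 15.2% of them, at a background of 23.2% of 15854 genes. Among them were Kcnip3 (F 6.29, adjusted p = 0.00447), Kcnj12, Kcnh3, Kcnn2, Kcnt1, Kcnk1, Kcnh6, the leak channel Kcnk3, Kcng4, Kcnip2 and Kcnf1 (adjusted p = 0.0363). Without CreTM 9, CreVE 1 and CreVE 3 the count was 32, at a background of 36.7%. Kcnk1, the member with the smallest pooled SD, averaged 11.98 ± 0.14 in CreTM, 12.04 ± 0.09 in CreVE, 11.99 ± 0.08 in the libraries labelled AKO, 12.03 ± 0.12 in 4MHFW (SD, n = 10 each) and 12.18 ± 0.11 in 2MHF (SD, n = 9), where it was highest.

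Of 25 partner genes of these channels, 23 were tested. They comprise the related Hcn pacemaker channels, extracellular and cytoskeletal partners of Kv channels, sulfonylurea receptors and calmodulins. In CreVE against 4MHFW, 1 of the 23 was called, at a background of 6.17% of genes. Dpp10, a membrane-spanning partner of Kv4 channels, was higher by 0.22 on the log2 scale (SE 0.06, adjusted p = 0.0258, limma). In the other pairwise comparisons 0 were called. In the test over 5 groups, 5 of the 23 were called, at a background of 23.2% of genes. Among them were Calm2, Dpp10, the Kv2 partner Amigo1 and Abcc9, the sulfonylurea receptor of Kir channels in pericytes.

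Members known from particular cell types were set against those cells' marker lists in 5 relations over the 49 libraries, with group means removed and pairs chosen after the data were seen. Kcnj10, the potassium-buffering rectifier of astrocytes, followed the astrocyte list, with Pearson's r of 0.725 and Spearman's rho of 0.702 (permutation p of 1e-05 for each, the smallest that 100000 permutations can give; 5e-05 after adjustment over 5 relations). Without the 2 libraries farthest on the list r was 0.666. For Kcnj8 and the pericyte list r was 0.304 and rho 0.272 (permutation p of 0.0355 and 0.0626, adjusted 0.0889 and 0.157), and r was 0.252 without 2 libraries. No relation passed for Kcnj13 and the choroid plexus and ependyma list (r 0.006, rho 0.117) or Kcnk13 and the microglial list (r -0.067, rho 0.117). That of Kcnh4 and the striatal list (r -0.088, rho -0.104) did not pass either, with adjusted permutation p of 0.494 or more for all 3. The choroid plexus and ependyma level rested on only 4 of the 10 listed genes, those with a mean level of at least 5. Over the 45 libraries left without CreVE 3, CreTM 9, CreVE 1 and 2MHF 37, the relation of Kcnj10 had r of 0.683 and rho of 0.661 (adjusted permutation p of 5e-05 and 0.0002). That of Kcnj8 had r of 0.236 and rho of 0.205 (adjusted permutation p of 0.297 and 0.469), and the other 3 lay between r of -0.081 and 0.192.

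**Figure D5:**
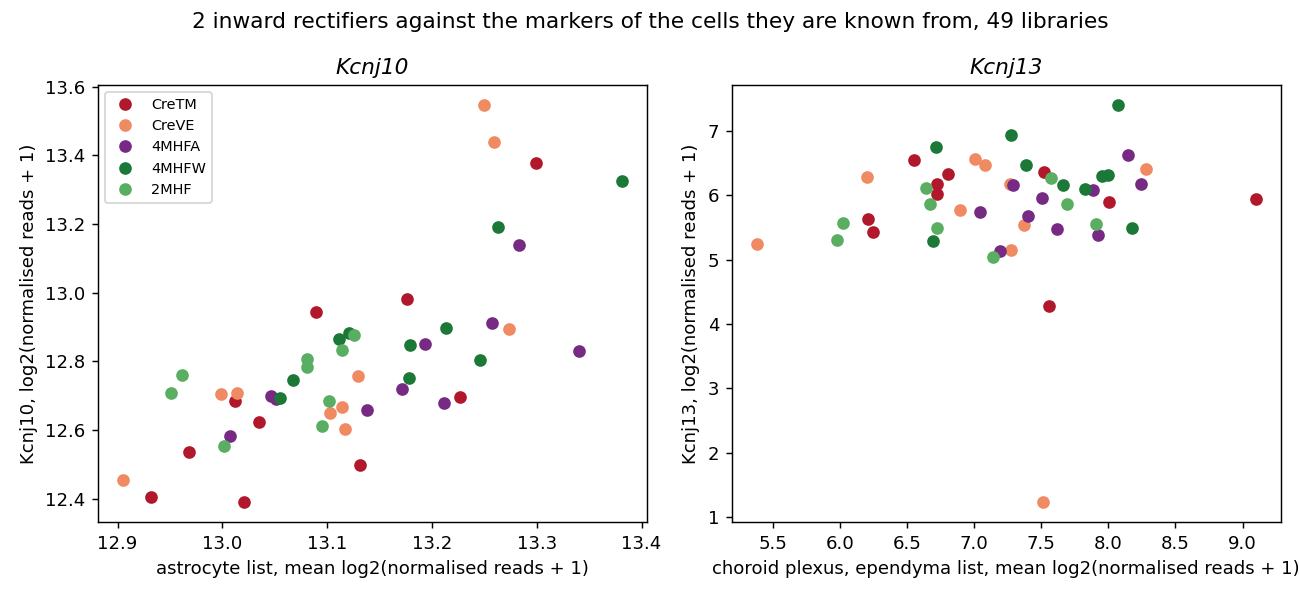
Levels of Kcnj10 against the astrocyte list (left) and of Kcnj13 against the choroid plexus and ependyma list (right), all in log2(normalised reads + 1), 1 point per library, coloured by group. Kcnj10 follows its list (r 0.725 with group means removed), and Kcnj13 shows no such relation (r 0.006), with the CreVE 3 library at 1.23. The choroid plexus and ependyma level rests on 4 of its 10 genes.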

How the data were processed

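Frontal cortex RNA from 49 libraries was measured with a stranded mRNA kit, per the labels' protocols; aligner, counting, build and scaling are not stated in the material used here. The authors deposited 1 table of log2 values, log2(normalised reads + 1). Low values fell on whole reads (within 0.1 read, for values up to 200 reads) for 99.92 to 100% of values, which gave the read totals. A further column matched no labelled sample (1 column) and was not used, and 7 genes that were not whole were left out. Differences on this scale understate those of low genes.

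Groups came from the titles and the series' design text. Nothing says what the numbers in the titles mean, so p-values speak only of library-to-library spread, which may be technical in part. The fit was limma 3.58.1 in R 4.3.3 (trend, robust), two-sided, with Benjamini-Hochberg adjustment over all genes tested and a threshold of 0.05. A gene was tested if it reached 10 reads, scaled to a library of median depth, in no fewer libraries than the smaller group holds. The scripts were tested on simulated data. Positions are from GENCODE on GRCm38, and promoter sequences from RefSeq on GRCm38.p6. The members and lists were chosen with earlier results of these data known. Named members were those called, up to 15 per comparison, and, where fewer than 5 were, the 3 of smallest p on either side, besides the highest of each subfamily. Alternatives changed the filter, pseudocount, scaling, test, covariate and libraries; the sets without CreTM 9, CreVE 1 and CreVE 3, also with 2MHF 37, were chosen after seeing the data. A few genes that these rules name are not reported here.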

Additional observations from a re-analysis of the deposited data

Results flagged for a closer look

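Of 140 groups of values looked at (28 named members in 5 groups), 14 held 1 library far from all others of its group, and chance gives about 1 in 20. All values are levels in log2(normalised reads + 1), each followed by that of the nearest library.

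CreTM 9 was the lowest of its group for Kcnab2 (14.05, nearest 14.42), Kcng3 (4.40, nearest 5.22), Kcnh4 (8.40, nearest 9.06) and Kcnk4 (6.80, nearest 8.50). CreVE 3 was the lowest for Kcnk4 (6.90, nearest 8.34) and Kcnk9 (7.77, nearest 9.01). CreVE 16 was the lowest for Kcne4 (4.68, nearest 5.67), and CreVE 5 the highest for Kcnj12 (10.34, nearest 10.07). The library 4MHFA 6 was the lowest for Kcnh5 (8.74, nearest 9.56) and Kcnk9 (8.26, nearest 8.81), and 4MHFW 13 was the lowest for Kcnt1 (11.55, nearest 11.90). In 2MHF, library 37 was the lowest for Kcnh5 (8.58, nearest 9.83) and Kcnk9 (8.08, nearest 9.10), and library 36 for Kcng4 (7.61, nearest 8.09).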

How the results depend on the processing

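Over 44 named results and 1122 alternatives, 931 kept their direction and their side of the threshold, 170 lost the call, 21 gained one and 0 reversed. This tally pools called members with named members that were not called and so could not lose a call. The results over 5 groups have no direction and could not reverse. The tally is therefore no measure of how stable the calls were. The counts of called members moved more. Each count is followed by the share of all genes called in the same fit. Over the fits that left out 1 library, that share was 0.405 to 1.35% in the libraries labelled AKO against 4MHFW. In CreVE against 4MHFW it was 9.79% at 4 members. For the libraries labelled AKO against 4MHFW (2 members, 0.786%), the count was 1 with no filter (0.451%) or upper quartile scaling (0.714%), 0 with the myelinating oligodendrocyte covariate (0.0917%), all 49 libraries in one model (0.317%), without 4MHFA 14 and 19 (0.404%) or with 4MHFW 21 to 25 alone (1%), and 0 to 2 leaving out 1 library. For 4MHFW against 2MHF (7, 8.69%), it was 3 with no filter (5.12%), the striatal covariate (6.16%), one model (5.35%) or 4MHFW 11 to 15 alone (7.45%), 1 with the olfactory bulb (2.13%) or myelinating oligodendrocyte covariate (0.755%), 0 with 4MHFW 21 to 25 alone (0.234%), and 2 to 20 leaving out 1 library (18.6% at 20). With 4MHFW 21 to 25 alone Kcnip3 was not called (adjusted p = 0.064, limma). For CreVE against 4MHFW (1, 6.17%), it was 2 with the striatal covariate (3.66%), 6 with olfactory bulb (11.9%), 0 with myelinating oligodendrocyte (0.0197%), 3 in one model (7.92%), 0 with 4MHFW 11 to 15 alone (1.04%), 15 without CreVE 1 and CreVE 3 (18%), and 1 to 4 leaving out 1 library. For CreTM against 4MHFW (4, 13.1%), it was 10 with olfactory bulb (15.3%), 1 with myelinating oligodendrocyte (3.95%), 2 in one model (12.4%), 0 with 4MHFW 11 to 15 alone (4.34%), and 2 to 11 leaving out 1 library (20.8% at 11). Across the 5 groups (12, 23.2%), it was 25 with olfactory bulb (30%) and 32 without CreTM 9, CreVE 1 and CreVE 3 (36.7%). Fits with fewer libraries or another set of genes differ by construction, and for the other settings the cause was not tested. CreTM against CreVE and the difference of differences stayed at 0 called members in every alternative run.

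The values showed no pairing of libraries that share a number in their titles, but so few shared numbers cannot exclude one. Libraries of the same number in 4MHFA and 4MHFW had correlations of -0.213 to 0.0916 over 5 shared numbers, and those in CreTM and 4MHFW of 0.0249 and -0.0486 over 2; 0 correlated best with their own. With the replicate block 3 members were called in the libraries labelled AKO against 4MHFW (0.851% of genes), Kcng4 and Kcnab2 among them. The block was added after seeing the data for CreTM against 4MHFW, where it gave the same 4 members (12.5%), for the 5 groups (12 members, 20%) and for the difference of differences (0 members, 0.0446%). No paired analysis was possible for the other comparisons because their groups share fewer than 2 numbers.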
